A study of Mus musculus with 13 samples.

Results

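A group of 9 genes tied to T cell development, Tcf7, Lef1, Bcl11b, Gata3, Themis, Satb1, Ets1, Ikzf1 and Tox, was followed through thymic injury and recovery in bulk RNA-seq of CD45- thymic cells, the fraction from which cells carrying the pan-leukocyte marker CD45 are removed. They were chosen by symbol, all 9 were found among the 53379 identifiers of the count table, and all 9 were among the 19984 genes that passed the filter on low counts. The mice were wild-type C57BL/6 of 2 months. Of the 13 libraries, 4 were from steady state. The others came from mice given a sublethal dose of total body irradiation (TBI), with 3 libraries each at day 1, day 4 and day 7. The labels call the steady-state mice untreated, whereas the columns of the table name PBS controls of day 1 (replicate 2), day 4 (replicate 2) and day 7 (replicates 1 and 2). Steady-state values are given below in that order and called PBS libraries, and values after TBI in the order of their replicate numbers. The paper calls the bulk libraries biological replicates, and whether 1 library is 1 mouse or a pool is not stated. The p-values therefore measure the spread between libraries, which may be partly technical.

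T cell precursors enter the thymus as uncommitted cells, and Notch signals from the epithelium switch on TCF1 (encoded by Tcf7) and GATA3, which in turn open the T cell programme and lead to Bcl11b, the factor that closes alternative fates. LEF1 acts beside TCF1, IKZF1 (Ikaros) and SATB1 organize chromatin in lymphocytes, ETS1 supports T cell receptor genes, and TOX is needed for the CD4 lineage. Themis is the exception in the group: it is a signalling protein of the T cell receptor pathway and not a DNA-binding factor. None of these genes is a marker of the epithelial, endothelial or fibroblast cells that the CD45- gate is meant to keep, although ETS1 is also made by endothelial cells and GATA3 by some epithelia.

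The libraries held the cells named on their labels and, in amounts that varied, thymocyte RNA. Total counts ran from 15721866 to 52056896. Values are CPM, counts scaled to a common library size, after TMM scaling, which evens out differences in library composition. The summed level of 5 fibroblast genes was 14560 to 107800 CPM per library, that of 8 thymic epithelial genes 704 to 4051 CPM and that of 5 endothelial genes 591 to 1078 CPM. Ptprc, which encodes CD45 itself, was present in every library, at 24 to 119 CPM at steady state, 12.7 to 14.99 CPM at day 1, 4.07 to 4.54 CPM at day 4 and 21.6 to 607 CPM at day 7. A list of 16 thymocyte genes (T cell receptor signalling, recombination and coreceptor genes) summed to 255 to 804 CPM at steady state, 120 to 153 CPM at day 1, 30.0 to 48.6 CPM at day 4 and 233 to 5241 CPM at day 7. In bulk RNA, fewer cells of a type and less RNA per cell cannot be told apart.

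RNA of Tcf7 and Lef1, which encode TCF1 and its partner LEF1, was lower at day 1 than at steady state and lowest at day 4. It was higher again at day 7, with replicate 1 still below every steady-state library. Of these differences, only the rises at day 7 against day 1 and day 4 passed the test given below. Tcf7 (chromosome 11, 52252371 to 52283014, minus strand, GRCm38) stood at 111, 46.8, 154 and 54.5 CPM in the PBS libraries. It stood at 20.1, 23.9 and 18.6 CPM at day 1, 5.55, 4.69 and 7.09 CPM at day 4, and 34.4, 931 and 360 CPM at day 7. The 3 conditions up to day 4 did not overlap with each other, each lower than the one before, whereas day 7 replicate 1 lay below every steady-state library and the other two lay above all of them. Lef1 (chromosome 3, 131110471 to 131224356, plus strand) followed the same course, from 67.6, 11.0, 38.4 and 10.7 CPM at steady state to 2.04, 3.48 and 3.44 CPM at day 1 and 1.48, 0.667 and 1.17 CPM at day 4, before 6.22, 139 and 68.1 CPM at day 7. Of the exonic bases of Lef1, 13.75% also belong to the antisense gene Gm43352, and the counting as described made no use of strand.

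Bcl11b, Satb1 and Ikzf1 had their lowest mean at day 4. Bcl11b (chromosome 12, 107910403 to 108003602, minus strand) measured 36.8, 5.63, 40.6 and 9.88 CPM at steady state, 1.27, 8.59 and 8.48 CPM at day 1, 1.48, 0.738 and 0.555 CPM at day 4, and 9.07, 100 and 110 CPM at day 7. Day 1 replicate 1 was already at the day 4 level for this gene, while its other two libraries were within the steady-state range. Satb1 (chromosome 17, 51736187 to 51833290, minus strand) showed the same split at day 1, with 2.97 CPM in replicate 1 against 13.9 and 11.2 CPM, below 103, 17.2, 99.4 and 25.4 CPM at steady state. Replicate 1 also stood apart at day 1 over all genes (chi-square per degree of freedom of 375 and 365 against the other two, 52.0 between these) and bears another tag at the end of its column name than they do. No source used here explains these tags, and their part was not tested. At day 4 Satb1 measured 2.65, 1.76 and 1.30 CPM and at day 7 19.7, 260 and 186 CPM. Ikzf1 (chromosome 11, 11685003 to 11772926, plus strand) went from 15.6, 3.43, 18.5 and 4.60 CPM to 1.81, 2.28 and 2.60 CPM at day 1, 0.904, 1.34 and 1.00 CPM at day 4, and 2.52, 71.0 and 42.8 CPM at day 7. Its counts at day 4 were 14, 76 and 54 reads, so replicate 1 of that day, the shallowest library, gives the least precise value.

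Themis, the signalling protein, moved like Tcf7. Themis (chromosome 10, 28668360 to 28883818, plus strand) stood at 50.4, 16.6, 61.6 and 17.5 CPM at steady state, 10.1, 8.78 and 7.75 CPM at day 1, 2.07, 1.30 and 2.93 CPM at day 4, and 13.5, 341 and 158 CPM at day 7. As for Tcf7, the conditions up to day 4 stepped down without overlap, and 1 of the day 7 libraries lay below all PBS libraries.

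Gata3, Ets1 and Tox took another course: their day 4 libraries lay inside the steady-state range for Gata3 and Tox, and 1 of 3 did so for Ets1. Gata3 (chromosome 2, 9857078 to 9890034, minus strand) measured 21.7, 5.85, 16.6 and 7.84 CPM at steady state, 4.41, 9.29 and 9.03 CPM at day 1, 7.29, 6.02 and 8.90 CPM at day 4, and 7.28, 58.8 and 36.0 CPM at day 7. Ets1 (chromosome 9, 32636221 to 32757820, plus strand) measured 421, 163, 351 and 146 CPM at steady state, 67.8, 176 and 183 CPM at day 1, 224, 86.8 and 101 CPM at day 4, and 164, 562 and 526 CPM at day 7. At day 4 the high Ets1 value is from replicate 1, which bears another tag than the other two; the part of the tag was not tested. For Gata3 and Ets1, values at days 1 and 4 overlapped with each other and with steady state. Tox (chromosome 4, 6686353 to 6991557, minus strand) measured 30.3, 5.10, 17.5 and 5.28 CPM at steady state, 4.86, 4.09 and 6.10 CPM at day 1, 10.2, 9.12 and 8.16 CPM at day 4, and 5.68, 39.5 and 21.2 CPM at day 7. It is the only one of the 9 whose 3 day 4 libraries all lay above its 3 day 1 libraries. The share of all genes with that pattern was not computed. The fitted difference did not pass the edgeR test given below (log2 fold change 0.86, adjusted p = 0.623).

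**Figure D1:**
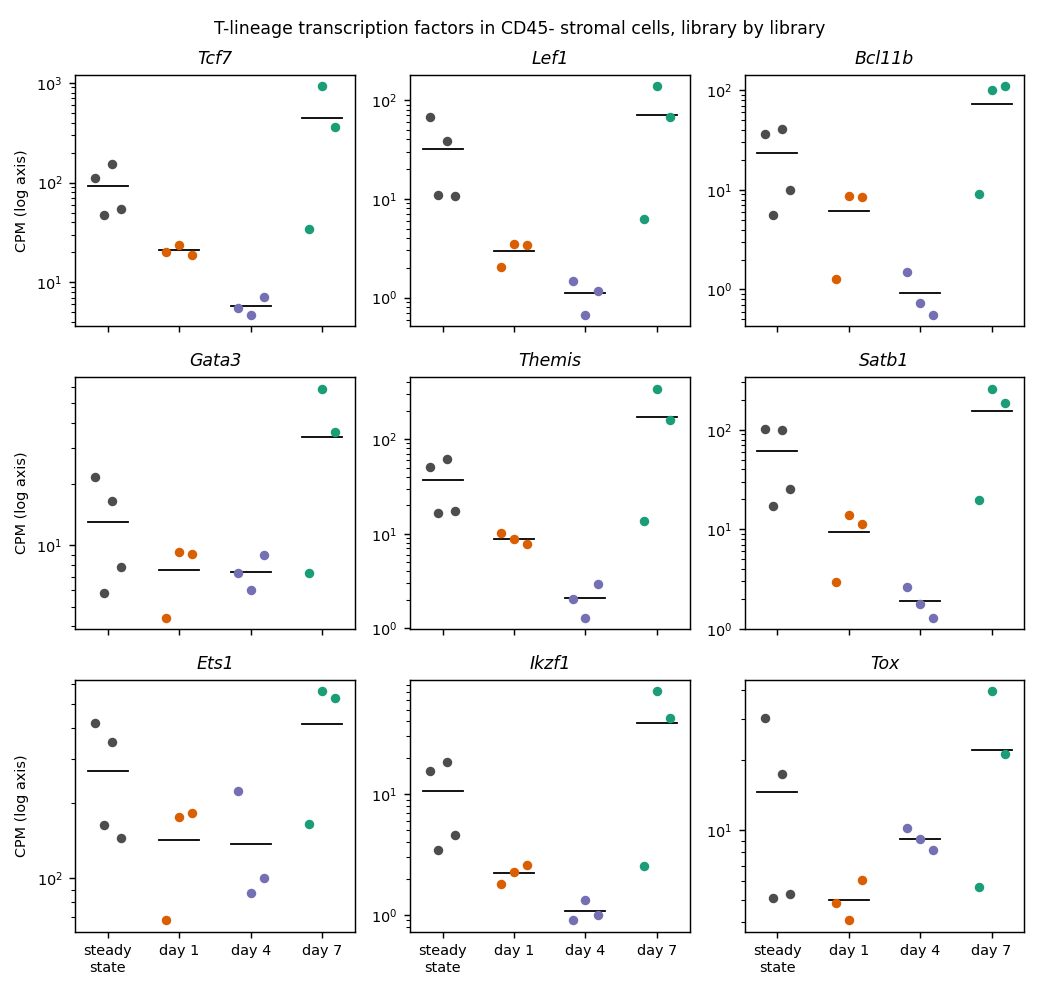
Level of each gene in CPM (log axis, each panel with its own range) by condition; points are libraries and lines are means, with 4 libraries at steady state and 3 at each day. Tcf7, Lef1, Bcl11b, Themis, Satb1 and Ikzf1 have their lowest mean at day 4 (5.78 CPM for Tcf7), whereas Tox has a higher mean at day 4 (9.16 CPM) than at day 1 (5.02 CPM); day 7 replicate 1 lies far below the other 2 day 7 libraries for all 9.

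At steady state the libraries split the same way for all 9 genes: the PBS libraries of day 1 replicate 2 and day 7 replicate 1 were high and the other two low. Lists of other cell types divided these libraries too: thymic epithelial genes summed to 2911, 809, 2002 and 903 CPM and myeloid and dendritic genes to 142, 47.5, 108 and 62.8 CPM, high in the same pair, and fibroblast genes to 14560, 107800, 26930 and 69610 CPM, low in it. Their part in the split was not tested. Between the day 1 replicate 2 and day 4 replicate 2 controls the fold ran from 2.37 for Tcf7 to 6.54 for Bcl11b. For Ptprc it was 4.97, and over the 16 thymocyte genes it ran from 0.767 for Ptcra to 6.61 for Cd5. Between the 2 day 7 controls it ran from 2.11 for Gata3 to 4.11 for Bcl11b, with 2.76 for Ptprc and a median of 2.56 over the 16 thymocyte genes. The high and the low pair also differ in the tag that ends the column name. Within day 7 the spread was wider still, and there replicates 1 and 2 bear the same tag. Replicate 2 exceeded replicate 1 by 28.2-fold for Ikzf1, 27.1-fold for Tcf7, 25.3-fold for Themis and 22.3-fold for Lef1, against 15.1 to 30.6-fold for the thymocyte genes and 28.1-fold for Ptprc. For Satb1 it was 13.2-fold and for Bcl11b 11.1-fold, below the whole range of the thymocyte genes, and for Gata3, Tox and Ets1 only 8.07, 6.95 and 3.42-fold. Replicate 3 exceeded replicate 1 by 17.0-fold for Ikzf1 and 9.44 to 12.2-fold for Tcf7, Lef1, Bcl11b, Themis and Satb1, but by 4.94, 3.73 and 3.20-fold for Gata3, Tox and Ets1. For the thymocyte genes it was 5.89 to 12.5-fold and for Ptprc 10.4-fold. Gata3, Tox and Ets1 thus differed least between the day 7 libraries.

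The levels were also set against the thymocyte genes of the same library. A gene that holds its CPM while these fall gains in share, so the shares restate the levels above. The level of Tcf7 was a near-constant share of the summed thymocyte list: 16.3 to 19.1% at steady state, 13.2 to 17.6% at day 1, 14.6 to 18.5% at day 4 and 14.8 to 17.8% at day 7, while that sum itself ran from 30.0 to 5241 CPM. Themis stayed between 4.21 and 7.66% in every library. Gata3 was at 2.06 to 3.18% at steady state, 2.89 to 7.50% at day 1, 18.3 to 24.4% at day 4 and 1.12 to 3.12% at day 7, so its day 4 libraries stood apart from the other 10. The same holds for Tox, at 16.8 to 34.1% at day 4 and 0.753 to 5.06% elsewhere, and for Ets1, at 207 to 747% at day 4 and 10.7 to 152% elsewhere. Lef1 at 1.33 to 9.91%, Satb1 at 1.95 to 15.1% and Bcl11b at 0.834 to 7.04% showed no such step. Ikzf1 ran from 1.08 to 4.32%. Its day 4 replicates 1 and 2 (3.02 and 4.32%) lay above all libraries of other conditions, and replicate 3 (2.06%) did not. These shares are levels in CPM without regard to gene length and serve to compare libraries within 1 gene. The list itself did not keep its make-up. Cd8a, the CD8 coreceptor chain, averaged 46.3 ± 23.1 CPM at steady state (SD, n = 4) and 0.301 ± 0.150 CPM at day 4 (n = 3), and Rag1, the recombinase, 61.2 ± 46.7 and 0.725 ± 0.416 CPM, whereas Cd3e, a chain of the T cell receptor complex, averaged 34.8 ± 20.6 and 3.87 ± 0.486 CPM.

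**Figure D2:**
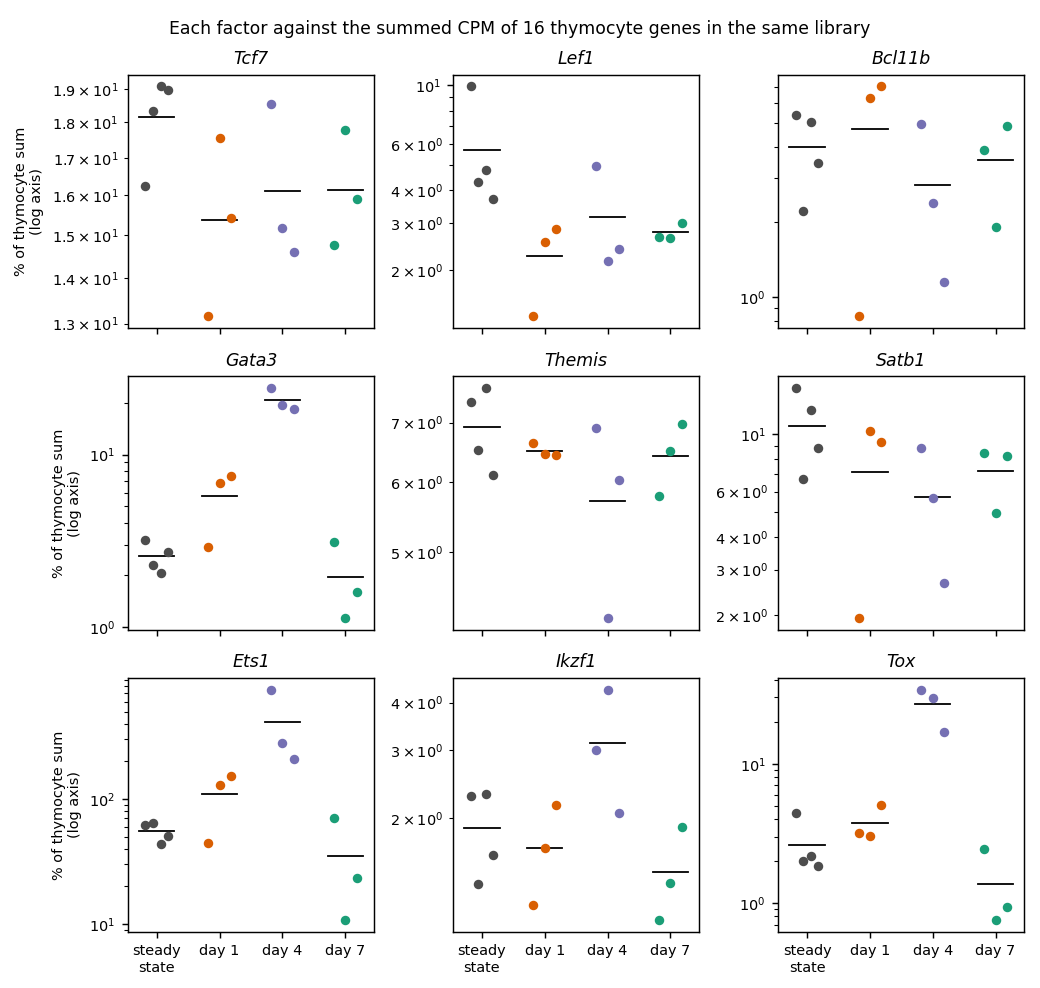
Level of each gene as a percentage of the summed CPM of 16 thymocyte genes in the same library (log axis, each panel with its own range); points are libraries and lines are means. Tcf7 stays between 13.2 and 19.1% in all 13 libraries, and Gata3 (18.3 to 24.4%), Tox (16.8 to 34.1%) and Ets1 (207 to 747%) stand above all other libraries at day 4.

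The first question for these genes is whether irradiation lowered them. At day 1 none of the 9 passed the quasi-likelihood test in edgeR (Benjamini-Hochberg adjusted p over all genes of 0.05 or less), which 2.35% of all genes passed. All 9 log2 fold changes were negative, with a median of -2.04 against -0.10 over all genes tested. Of the 9, 6 had an unadjusted p under 0.05, as did 3444 of all 19984 genes. DESeq2 called 3 of the 9 and 1399 over all genes. The 5 genes Tcf7, Lef1, Themis, Satb1 and Ikzf1 were lower in every day 1 library than in every PBS library, as were 8.56% of all genes. The fitted level of Lef1 was 10.7-fold below steady state (log2 fold change -3.42, SE 0.92, adjusted p = 0.0754) and that of Tcf7 4.39-fold (-2.13, SE 0.76, adjusted p = 0.173). Gata3 at 1.72-fold lower (adjusted p = 0.536) and Ets1 at 1.90-fold lower (adjusted p = 0.405) had 95% intervals that include no change. Of the 16 thymocyte genes, 0 passed at day 1, 14 had an unadjusted p under 0.05 and DESeq2 called 7, with a median log2 fold change of -2.02.

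At day 4 the distances were larger, but again 0 of 9 passed, against 0.29% of all genes. Tcf7, Lef1, Bcl11b, Themis, Satb1 and Ikzf1 each lay below every PBS library in all 3 day 4 libraries, a pattern that 8.22% of genes showed. The fitted fold changes were 33.0-fold lower for Satb1 (log2 fold change -5.04, SE 0.99, adjusted p = 0.06), 29.7-fold for Lef1 (adjusted p = 0.0681), 26.5-fold for Bcl11b (adjusted p = 0.0969), 17.4-fold for Themis (adjusted p = 0.0862), 15.8-fold for Tcf7 (adjusted p = 0.0755) and 9.64-fold for Ikzf1 (adjusted p = 0.174). The other 3 had small fitted differences, 1.97-fold lower for Ets1 (95% interval of the log2 fold change -2.15 to 0.19), 1.75-fold for Gata3 (-2.10 to 0.48) and 1.59-fold for Tox (-2.07 to 0.73). Whether the 6 changed more than these 3 was not tested. Of the thymocyte genes, 5 of 16 fell at day 4 (0 to 5 without 1 library, 1 to 14 under the other settings), among them Cd8a, with a median of -3.51 over the list. The 6 genes passed with DESeq2 and with no filter on low counts in edgeR, so the count at day 4 turns on the tool and the filter. Over all genes these settings called 645 and 250. The unadjusted p was under 0.05 for 6 of 9, and for 2602 of all 19984 genes.

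By day 7 all 9 log2 fold changes against steady state were positive, from 0.60 for Tox to 2.27 for Tcf7, and none passed, in a comparison where 1 gene of all those tested (0.005%) passed. None had all its day 7 libraries above steady state, whereas 2.82% of genes did; replicate 1 was below at least 1 PBS library for each gene. The unadjusted p was under 0.05 for 4 of the 9 and for 2691 over all genes, and DESeq2 called 2 of the 9. Without day 7 replicate 1, Tcf7 (log2 fold change 2.82, adjusted p = 0.00669), Themis (2.77, adjusted p = 0.0126) and Ikzf1 (2.43, adjusted p = 0.0343) passed; over all genes 622 passed without that library in place of 1, and 1081 with DESeq2 on all libraries.

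Between the days after TBI, the fall from day 1 to day 4 was not called for any of the 9, in a comparison where 1.43% of all genes passed. The unadjusted p was under 0.05 for 4 of the 9 and for 2729 over all genes. DESeq2 called 1 of the 9 and 960 over all genes. Tcf7, Lef1, Themis, Satb1 and Ikzf1 were lower in every day 4 library than in every day 1 library, as were 13.7% of genes. The largest fitted difference was 6.97-fold lower for Bcl11b (log2 fold change -2.80, SE 1.02, adjusted p = 0.235), with overlapping libraries. Gata3 and Ets1 differed by -0.03 (95% interval -1.39 to 1.33) and -0.05 (-1.27 to 1.17), and Tox by 0.86 (-0.63 to 2.36).

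The return at day 7 was the change that passed. Against day 1, 6 of 9 genes rose, where 3.68% of all genes tested passed with a rise: Lef1 by 23.8-fold (log2 fold change 4.57, SE 0.99, adjusted p = 0.0158), Tcf7 by 21.2-fold (4.41, SE 0.87, adjusted p = 0.0113), Themis by 19.2-fold (adjusted p = 0.0144), Ikzf1 by 17.4-fold (adjusted p = 0.0206), Satb1 by 16.6-fold (adjusted p = 0.0221) and Bcl11b by 3.58 on the log2 scale (SE 1.00, adjusted p = 0.0454). All but Ikzf1 were higher in every day 7 library than in every day 1 library, as were 12.7% of genes; for Ikzf1, day 7 replicate 1 at 2.52 CPM lay below day 1 replicate 3 at 2.60 CPM. Gata3 (4.49-fold, adjusted p = 0.0591), Tox (4.40-fold, adjusted p = 0.083) and Ets1 (2.93-fold, adjusted p = 0.119) did not pass in this fit; DESeq2, edgeR with no filter on low counts and edgeR with the column-name tag as a term each called 8 of 9, with Gata3 and Tox passing in the first pair and Gata3 and Ets1 in the last. Over all genes these settings called 2940, 2004 and 1416, in either direction. The count of 6 became 9 without day 7 replicate 1, 0 without day 1 replicate 1, 1 without day 1 replicate 2, day 1 replicate 3 or day 7 replicate 2 and 3 without day 7 replicate 3. The calls over all genes fell as well in the losses, from 1625 to between 472 and 790, while without day 1 replicate 1 the log2 fold changes of the 6 were still 3.10 for Bcl11b to 4.38 for Tcf7 (adjusted p = 0.121 and 0.0555).

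Against day 4 the same 6 genes rose, and 2.77% of all genes passed with a rise. Bcl11b rose by 83.6-fold (log2 fold change 6.39, SE 1.16, adjusted p = 0.0136), Satb1 by 83.5-fold (6.38, SE 1.07, adjusted p = 0.0105), Themis by 81.3-fold (adjusted p = 0.00895), Tcf7 by 76.4-fold (adjusted p = 0.00796), Lef1 by 65.9-fold (adjusted p = 0.0127) and Ikzf1 by 35.4-fold (adjusted p = 0.0182). These 6 were higher in all day 7 than in all day 4 libraries, a pattern found in 12.2% of genes. Gata3 (4.59-fold, adjusted p = 0.082), Ets1 (3.05-fold, adjusted p = 0.147) and Tox (2.42-fold, adjusted p = 0.354) did not pass in this fit; 7 of 9 did with DESeq2 and with no filter, Gata3 included, and with the tag as a term, Ets1 included. Over all genes these settings called 1919, 1265 and 854, in either direction. The count of 6 became 7 without day 7 replicate 1 and 0 without day 4 replicate 2 or day 4 replicate 3. In the losses the calls over all genes fell from 779 to 15 and 20, and the log2 fold change of Tcf7 was 6.12 and 6.43, against 6.26 with all libraries. The comparisons of day 7 share their libraries, as those with steady state share the 4 PBS libraries, and are not independent of each other.

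**Figure D3:**
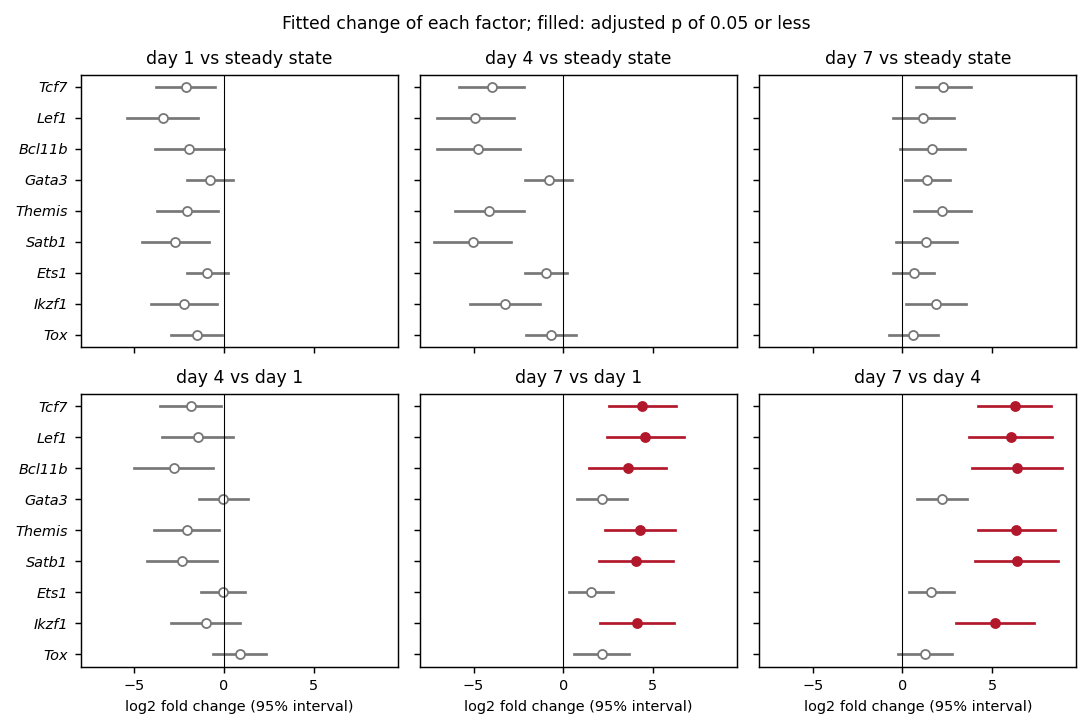
Fitted log2 fold change of each gene in the 6 comparisons, with 95% intervals from edgeR's quasi-likelihood fit on 13 libraries; filled symbols mark an adjusted p of 0.05 or less. Filled symbols occur in the comparisons of day 7 with day 1 and with day 4, for 6 genes each, and the intervals of Gata3, Ets1 and Tox lie nearest to 0 in the comparison of day 4 with steady state.

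Thymocyte genes moved with these changes. All 16 of the list rose at day 7 against day 1 (median log2 fold change 4.30) and against day 4 (median 5.96), and so did Ptprc, by 4.39 and 6.03 on the log2 scale. Without 1 library, 5 to 16 and 2 to 16 of the list passed. The median over the 9 genes was 4.05 and 6.04. Other leukocyte lists were present as well. The 6 B cell genes summed to 2.67 to 15.5 CPM and the 4 NK and innate lymphoid genes to 0.923 to 25.7 CPM per library. The 8 myeloid and dendritic genes summed to 33.7 to 145 CPM. At day 4 they stood at 54.0, 55.8 and 76.4 CPM, above the thymocyte list in each library (30.0, 30.9 and 48.6 CPM). The NK and innate lymphoid list, which shares regulators with T cells, stood at 1.91 to 2.28 CPM at day 4 and 1.55 to 5.59 CPM at steady state, and at 0.923, 25.7 and 7.402 CPM in the day 7 libraries, low and high in the same replicates as the 9 genes. Endothelial genes summed to 719 to 908 CPM at day 4, within their steady-state range of 591 to 1078 CPM, and thymic epithelial genes to 2247 to 4051 CPM at day 4, where steady state ran from 809 to 2911 CPM and day 7 from 704 to 1377 CPM. The part of any of these cell types in the levels of the 9 genes was not tested.

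Of 19 other regulators of the lineage, 4 rose at day 7 against day 1 and 4 against day 4, where 3.68% and 2.77% of all genes did. These counts ran from 0 to 5 and 0 to 6 without 1 library and from 0 to 8 and 0 to 7 under the other settings. None passed in the other comparisons, where 1 to 6 had an unadjusted p under 0.05 and DESeq2 called 0 to 2. Over all 19984 genes, 2602 to 3444 had an unadjusted p under 0.05 in those comparisons and DESeq2 called 645 to 1399. Those higher than at day 1 included Gfi1, a transcriptional repressor (log2 fold change 4.26, adjusted p = 0.0336), Myb, a factor of proliferating progenitors (3.83, adjusted p = 0.0216), and Tcf12, which encodes the E protein HEB (1.10, adjusted p = 0.0442). Those higher than at day 4 included Myb (5.08, adjusted p = 0.0154), Ikzf3, an Ikaros relative (3.21, adjusted p = 0.0468), and Gfi1, for which the day 4 libraries held 0 to 1 reads and no fold is given. The median log2 fold change over the 19 was 0.54 and 1.09 in these comparisons, lower than the median of the 9 genes. The Notch receptors and Notch targets of the list did not pass in any comparison.

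Levels between genes were compared per kilobase of exon. At steady state Tcf7 (34.8 ± 19.2 CPM per kb, SD, n = 4) and Ets1 (31.9 ± 16.1) were the highest, closer to each other than their spread, and the other 7 genes followed at 1.82 to 3.63 CPM per kb with spreads of 1.32 to 3.08. At day 1 Ets1 led at 16.8 ± 7.61 CPM per kb (n = 3), then Tcf7 at 7.94 ± 1.04 and Gata3 at 1.90 ± 0.690. At day 4 the order was Ets1 at 16.2 ± 8.91, Tcf7 at 2.20 ± 0.464, Gata3 at 1.86 ± 0.363 and Tox at 1.204 ± 0.134 CPM per kb. Tcf7 and Gata3 did not differ beyond their spread there. The remaining 5 lay between 0.0998 and 0.187 CPM per kb, and neighbours among them did not differ beyond their spread. At day 7 Tcf7 stood at 168 ± 173 and Ets1 at 49.2 ± 26.0 CPM per kb, a difference smaller than the SD of Tcf7, and in replicate 1 Ets1 was the higher, at 19.4 against 13.1 CPM per kb. The other 7 had means of 2.91 to 14.6 CPM per kb with SDs of 2.22 to 14.0, so no pair of neighbours differed beyond its spread.

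**Figure D4:**
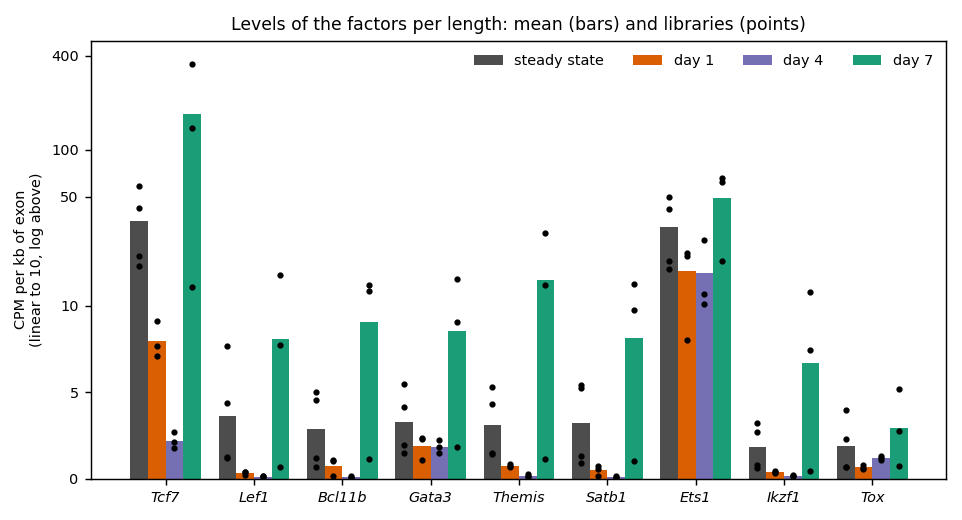
CPM per kilobase of exon for each gene and condition; bars are means, points are libraries, and the axis is linear up to 10 and logarithmic above. Ets1 has the highest bar at days 1 and 4 (16.8 and 16.2 CPM per kb) and Tcf7 at steady state and day 7 (34.8 and 168 CPM per kb), where its points overlap with those of Ets1.

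The genes closest in profile were sought by Pearson's r of log2(CPM + 0.5) over the 13 libraries, as a description without a test, since libraries of 1 condition share their level. Tcf7 and Themis were closest to each other among the 9 (r = 0.997), and both had Sla, an adaptor that dampens T cell receptor signals, as their nearest other gene (r = 0.997 for each, Spearman's rho 0.995 and 1). The second were Sla2, a related adaptor, for Tcf7 (r = 0.995) and Nckap1l, a haematopoietic actin regulator, for Themis (r = 0.995). Bcl11b and Satb1 were likewise closest to each other (r = 0.991). Their nearest other genes were Carmil2 (r = 0.991) and Kcna3, a potassium channel of lymphocytes (r = 0.982), for Bcl11b, and Rasgrp1, a Ras activator of T cells (r = 0.9904), and Jakmip1 (r = 0.984) for Satb1. Lef1 ran nearest to Cd2 (r = 0.987), a member of the thymocyte list, and E2f2 (r = 0.983), and Ikzf1 to Selplg, a selectin ligand of leukocytes, and Gm8774 (r = 0.992 for both). Gata3 had Rinl (r = 0.9752, rho 0.868) and Il12rb1 (r = 0.970, rho 0.885), and Ets1 had Fmnl1 and Dgkd (r = 0.976 for both, rho 0.907 and 0.896). Tox was the most apart. Its nearest genes were Gm43654 (r = 0.963) and Inpp4b (r = 0.952), its nearest among the 9 was Gata3 (r = 0.882), and with Bcl11b r was 0.673.

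Promoter sequence was taken from RefSeq starts on GRCm38.p6 for 7 of the 9 genes; for Ets1 and Tox none was used. Printed are the 250 bases before the most upstream start of Themis, Satb1 and Lef1, 3 of the 6 genes that rose at day 7, as examples chosen after the windows were seen, with and without a TCF/LEF core. Capitals mark core motifs found on either strand. The TCF/LEF core searched was CTTTG, which 48.6% of 32841 promoter windows of this length hold. For RUNX it was TGTGG (49.3% of windows). For ETS it was GGAA (93.5%). For GATA it was GATAA (22.6%). The E-box was searched as CANNTG (66.2%), and none of these contains another.
Themis, chr10:28668110-28668359, plus strand: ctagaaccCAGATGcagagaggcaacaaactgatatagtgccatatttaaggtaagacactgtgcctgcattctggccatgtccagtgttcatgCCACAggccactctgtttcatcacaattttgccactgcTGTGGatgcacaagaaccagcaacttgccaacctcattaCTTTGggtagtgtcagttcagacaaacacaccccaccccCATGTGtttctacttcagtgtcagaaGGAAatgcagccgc
Satb1, chr17:51833291-51833540, minus strand: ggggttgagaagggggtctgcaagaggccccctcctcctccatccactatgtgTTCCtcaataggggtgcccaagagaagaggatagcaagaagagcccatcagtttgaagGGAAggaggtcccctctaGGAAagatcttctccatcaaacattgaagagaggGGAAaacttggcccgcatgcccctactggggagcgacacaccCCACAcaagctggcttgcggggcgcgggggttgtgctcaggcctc
Lef1, chr3:131110047-131110296, plus strand: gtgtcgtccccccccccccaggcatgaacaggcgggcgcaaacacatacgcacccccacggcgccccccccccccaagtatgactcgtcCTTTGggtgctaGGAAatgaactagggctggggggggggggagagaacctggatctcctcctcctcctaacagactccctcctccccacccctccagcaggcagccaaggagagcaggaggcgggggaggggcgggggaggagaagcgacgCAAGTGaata
The Themis window held 1 TCF/LEF, 2 RUNX, 1 ETS and 2 E-box matches, that of Satb1 4 ETS and 1 RUNX, and that of Lef1 1 each of TCF/LEF, ETS and E-box. A TCF/LEF core was also present in the windows of Bcl11b and Ikzf1, which rose at day 7. It was absent from the windows of Gata3, Tcf7 and Satb1, and the 2 last of these rose as well. A match is a description of these letters only. The windows of Satb1 and Lef1 lie inside exons of Gm6934 and Gm43352 on the opposite strand. Of the Bcl11b window, 188 bases lie in exons of Bcl11b itself. That of Ikzf1 (11685675 to 11685924) lies within the span of Ikzf1 given above. The Gata3 window (9878601 to 9878850) lies within the span of Gata3 and inside exons of Gm13256 on the opposite strand. From its first ATG the Tcf7 window reads to its end without a stop codon, so it may hold coding sequence. A core absent from these windows is therefore no statement about the promoters of Gata3 and Tcf7.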

How the data were processed

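CD45- cells were obtained by digestion of the thymus, depletion of CD45+ cells on magnetic beads and sorting. The authors trimmed reads (Trimmomatic 0.38), aligned them with STAR 2.7.0e to GRCm38.p5 and counted them with featureCounts 1.6.3 against GENCODE M12, and deposited raw counts per gene and library with the exonic length of each gene. Reads that fit 2 genes are not counted under the default settings of that tool. Groups after TBI came from sample labels that match the column names. The steady-state columns were grouped by PBS in their names, since no label holds their day and replicate. Symbols came from GENCODE M21 for 53274 of 53379 identifiers. No column of sample values was left out.

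The 13 libraries (median total 44078906 counts) entered 1 fit in edgeR 4.0.16 (R 4.3.3, limma 3.58.1) with TMM normalization, filterByExpr() by condition, the quasi-likelihood test and a Benjamini-Hochberg threshold of 0.05. SE is the absolute log2 fold change over the square root of F. The fit was also run on simulated data with a smaller spread between libraries than these show, so that run does not measure its accuracy here. Sequences and motifs were handled with Python 3.11.15 and pandas 2.3.3. Plots used matplotlib 3.10.9. Libraries of a group differed by more than counting noise. Intervals cover the spread between libraries.

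The 9 genes and all gene lists were chosen with earlier results of these data known, so no p-value was adjusted over a list alone. Motifs were chosen after a first search with longer ones. Besides the 9 genes, the text names by a fixed rule up to 4 other regulators per comparison that passed, those with the largest change (1 of them is not reported here); Ptprc and the thymocyte markers Cd3e, Cd4, Cd8a and Rag1; the highest gene of each other marker list; and the 2 genes most like each of the 9 by Pearson's r. Cd4 and the highest genes of the lists (Lck, Cd79b, Nkg7, Lyz2, Krt5, Pecam1 and Col3a1) are covered by the sums of their lists. Alternatives were DESeq2 1.42.0, RLE normalization, no filter, at least 10 counts in every library, a fit of only both conditions, a covariate for the families of column tags (k3, kk, neither), the replicate number as a block, total counts alone for levels, and each library left out. Promoters are RefSeq starts on GRCm38.p6.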

Additional observations from a re-analysis of the deposited data

Results flagged for a closer look

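The changes that differed between days after TBI, by edgeR's own test of the difference, were the rises at day 7. Against day 1 the log2 fold changes were 4.41 for Tcf7, 4.57 for Lef1, 3.58 for Bcl11b, 4.27 for Themis, 4.05 for Satb1 and 4.12 for Ikzf1. Against day 4 they were 6.26 for Tcf7, 6.04 for Lef1, 6.39 for Bcl11b, 6.35 for Themis, 6.38 for Satb1 and 5.15 for Ikzf1. All 3 day 7 libraries lay above the earlier day for each gene except Ikzf1 against day 1.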

How the results depend on the processing

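Directions were steadier than calls: of the fold changes under the alternatives, 584 kept their direction and side of the threshold, 48 passed and 54 ceased to pass with the same direction, and 16 turned sign. DESeq2 called 3 of the 9 genes at day 1, 6 at day 4 and 2 at day 7 against steady state, and 1 for day 4 against day 1. Over all genes it called 1399, 645, 1081 and 960. No filter gave 2, 6 and 2 of the 9 against steady state, and 555, 250 and 627 over all genes. A fit of only both conditions gave 4 for day 4 against steady state, 1 for day 4 against day 1 and 3 for day 7 against day 1. RLE normalization gave 1 for day 4 and the tag covariate 1 for day 1, both against steady state. Leaving out 1 library gave 0 to 1 genes for day 1 and 0 to 2 for day 4 against steady state (most without the PBS library of day 4 replicate 2), and 0 to 3 for day 7 against steady state (3 without day 7 replicate 1). It gave 0 to 9 for day 7 against day 1 and 0 to 7 for day 7 against day 4, most without day 7 replicate 1; the lowest are named with the results.

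Deviations of same-numbered libraries correlated on average at -0.669 (days 4 and 1), -0.141 (days 7 and 1) and 0.0537 (days 7 and 4). Of 9 libraries, 1 was closest to its own number. With 3 libraries per day, deviations from the mean of a day depend on each other. These values therefore do not decide whether the replicate numbers pair the libraries. With the replicate block the count of called genes was 0 for day 7 against both day 1 and day 4, and over all genes 640 in place of 1625 and 0 in place of 779. Of the 16 thymocyte genes, 1 and 0 passed with it in place of 16 each. Steady-state columns carry no number of the labels, so no block could be had there.

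Sign changes concerned small differences. For day 4 against day 1, Gata3 had log2 fold changes of 0.42 with the tag covariate, 0.040 with only both conditions, 0.13 with the replicate block and -0.31 to 0.14 without 1 library. Ets1 had 0.47, 0.0018, 0.13 and -0.55 to 0.19. Tox without 1 library ran from -0.95 to 0.072 for day 4 and from -0.064 to 1.21 for day 7, against steady state. The causes were not tested. Total counts alone moved the median of all genes by 0.123 (log2) for day 4 against day 1. At day 4 depth limits Ikzf1, with 14 reads in its lowest library, and also Lef1 and Bcl11b, with 23 reads each in that library.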
